A study of Mus musculus with 12 samples.

Results

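The MAP kinase cascade genes described here are 34 mouse genes that encode the small GTPases and protein kinases of the ERK, JNK, p38 and ERK5 pathways. They were taken by gene symbol from a table of 84846 isoforms of 28852 genes, in which 215 isoforms belong to them. No measured value set the list, but earlier results of these data were known when it was chosen. By tier they are 2 RAS genes, 11 MAP3K/RAF kinases, 7 MAP2K kinases, 8 MAPKs and 6 effector kinases. RNA was sequenced from BALB/c bone marrow-derived mast cells (BMMCs), which are grown from femoral marrow in IL-3 and SCF, and no mutant allele is named in the labels. There were 4 groups of 3 libraries each: a blank control, SiO2 (nano-silica particles), DNP-HSA (a haptenated albumin, recognized by IgE against DNP that mast cells carry) and DNP-HSA+SiO2. The dose and time for the sequenced cells, and whether these had been sensitized with IgE, are stated neither in the labels nor in the methods read. In each group a library carries no number and the others carry 1 and 2, and since nothing says that they came from separate cultures, each p-value reflects the spread among these libraries alone, which may be technical.

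A MAP kinase cascade passes a signal through kinases that phosphorylate each other in order. RAS proteins recruit RAF kinases, a MAP3K or RAF phosphorylates a MAP2K, the MAP2K phosphorylates a MAPK on a threonine and a tyrosine, and the MAPK phosphorylates transcription factors and effector kinases such as the RSK, MK and MNK families. In mast cells the cascades are switched on by cross-linking of the high-affinity IgE receptor and lead to cytokine and eicosanoid production. The switch is made by phosphorylation of proteins that are already present, so that transcript levels describe the supply of these kinases and not their activity.

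The libraries held 55737606 to 76718065 estimated counts. All 11 mast cell markers reached 1 FPKM (fragments per kilobase of isoform and library size) in at least 1 library. Kit was at 852 to 1513 FPKM and Fcer1a, a chain of the IgE receptor, at 2311 to 3253 FPKM over the 12 libraries. Other markers were uneven. Tpsab1 was at 405 to 448 FPKM in the unnumbered libraries and 9.42 to 42.9 in the numbered ones. Mcpt4 was under 1 FPKM in the numbered libraries other than DNP-HSA 2. Of the basophil markers, Cd200r3 was at 101 to 166 FPKM over the 12 libraries. Mcpt8 was at 20.7 to 24.3 FPKM in the unnumbered libraries and 0.774 to 5.32 in the numbered ones. The summed FPKM of 13 macrophage and neutrophil markers was 15.8 to 20.8 in the 4 unnumbered libraries and 26.8 to 143 in the 8 numbered ones. Levels are given in FPKM where genes are compared and in CPM (counts scaled to the TMM library size) where libraries are compared, with isoforms and marker genes in FPKM throughout. All differences are relative to the TMM scale: on a TPM scale the median of all genes moved to -0.35 (log2) for SiO2, -0.26 for DNP-HSA and -0.38 for DNP-HSA+SiO2, each against blank.

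Of the 34 genes, 29 were at 1 FPKM or more in all 12 libraries. The others were Map3k8, which was under 1 FPKM in the 3 blank libraries, and 4 genes under 1 FPKM in at least 10 libraries: Mapk11, Mapk12 and Mapk13, which encode the p38 beta, gamma and delta kinases, and Map2k6, a p38 activator. Mapk11, Mapk12 and Mapk13 averaged 0.107, 0.104 and 0.0323 FPKM over the 12 libraries, whereas Mapk14, the p38 alpha gene, averaged 51.7 FPKM. Among the p38 genes the transcript pool was thus almost wholly that of Mapk14. Map2k6 averaged 0.568 FPKM, against 114 FPKM for Map2k3, the other p38-specific MAP2K. These 4 genes did not pass the filter for testing (1 FPKM in at least 3 libraries), and 30 members did.

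**Figure D1:**
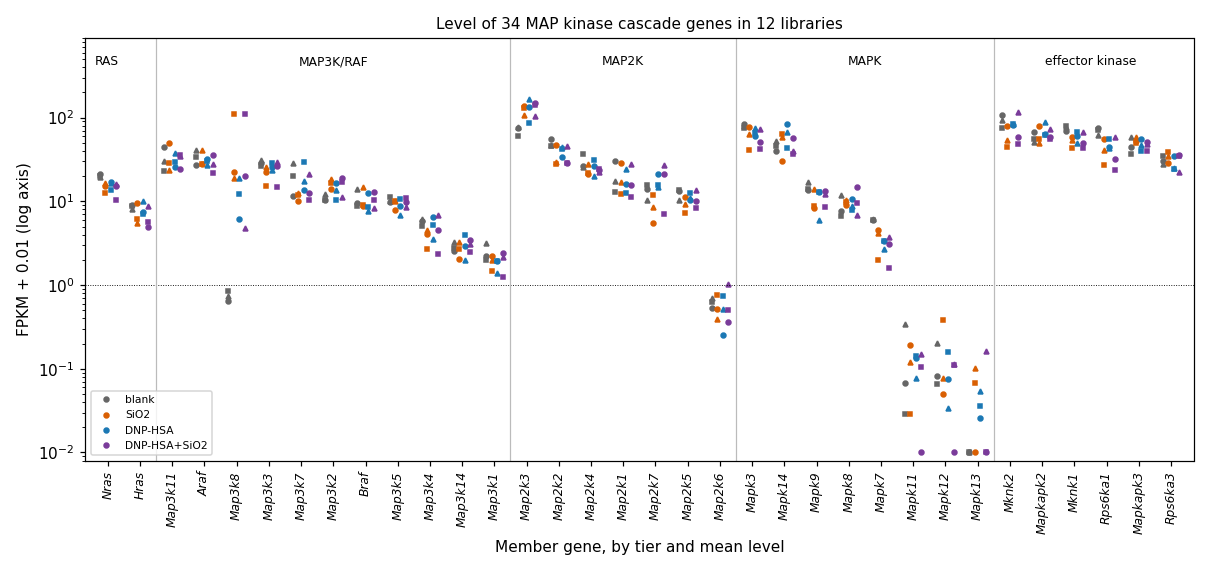
FPKM plus 0.01 (log axis) of the 34 genes in each of the 12 libraries, grouped by tier and ordered by mean level, with colour for the treatment group and shape for the library number (square, unnumbered; circle, 1; triangle, 2); the dotted line marks 1 FPKM. Map3k8 is the gene whose blank libraries (0.638 to 0.836 FPKM) lie far below its other libraries, and Mapk11, Mapk12, Mapk13 and Map2k6 lie at the bottom of their tiers.

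Within the tiers the levels differed widely. Of the RAS genes, Nras averaged 16.2 FPKM and Hras 7.60. The MAP3K/RAF tier ran from Map3k1 (MEKK1) at 2.00 FPKM and Map3k14 (NIK, which acts in the noncanonical NF-kappaB pathway) at 2.86 to Araf at 31.2 and Map3k11 (MLK3, a JNK pathway kinase) at 32.4. The MAP2K tier was led by Map2k3, and Map2k2 (MEK2) averaged 39.8 FPKM against 18.9 for Map2k1 (MEK1). In the MAPK tier Mapk3 (ERK1) was highest at 65.9 FPKM, and the JNK genes Mapk9 and Mapk8 averaged 11.8 and 9.50. All 6 effector kinases were among the more abundant members, from Rps6ka3 (RSK2) at 31.0 FPKM to Mknk2 (MNK2, an eIF4E kinase) at 77.1. Between libraries, the highest CPM was under 2 times the lowest in 13 of the 30 tested members, and the median ratio was 2.13 over members and 2.35 over all genes tested. Mknk1 (MNK1) was the least variable, with a ratio of 1.27, and Map3k8 the most variable, with a ratio of 346.

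The question put to the comparisons was whether SiO2, DNP-HSA or both changed the transcript levels of these genes. No member passed an adjusted p of 0.05 in any of the 6 comparisons by edgeR's quasi-likelihood F-test with Benjamini-Hochberg adjustment over the 12862 genes tested. Over all genes, the percentage that passed was 0.0622% for SiO2, 0.218% for DNP-HSA and 0.575% for DNP-HSA+SiO2 against blank. It was 0.0% for DNP-HSA+SiO2 against DNP-HSA, 0.0% for DNP-HSA+SiO2 against SiO2 and 0.0233% for the interaction. At an unadjusted p under 0.05 there were 3 members for SiO2 (Map3k8, Map2k3 and Map3k2, all higher), beside 8.03% of all genes (5.78% higher and 2.25% lower). There were 5 for DNP-HSA (Map3k8, Map2k3, Mapk14 and Mapkapk2 higher, Mapk7 lower), beside 7.38% of all genes (4.52% higher and 2.85% lower). DNP-HSA+SiO2 gave 4 (Map3k8, Map2k3 and Map3k2 higher, Mapk7 lower), beside 12% (6.95% higher and 5.08% lower). Between DNP-HSA+SiO2 and either treatment alone there were 0 members, beside 0.645% of all genes against DNP-HSA and 1.08% against SiO2. The interaction gave 2 (Mapk14 and Map3k8), beside 2.08%.

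These counts at an unadjusted p moved with the setting. For SiO2 there were 7 members with the replicate block within pairs of groups and 6 with library totals, the TPM scale and either limma fit. There were 6 without SiO2 1 and 5 without the unnumbered DNP-HSA library. For DNP-HSA there were 3 with library totals, the TPM scale, either limma fit or without DNP-HSA 1. There were 2 without the unnumbered blank library or blank 2, and 1 without DNP-HSA 2. Against DNP-HSA alone the count for DNP-HSA+SiO2 was 4 without DNP-HSA+SiO2 2, and 1 without the unnumbered DNP-HSA library or without all 4 unnumbered ones. Against SiO2 alone it was 4 without the unnumbered DNP-HSA+SiO2 library, 2 without the unnumbered SiO2 library and 1 without all 4 unnumbered ones. The interaction gave 1 without the unnumbered SiO2 library, DNP-HSA 1 or DNP-HSA 2, with either limma fit and with the filter of 1 FPKM in all libraries. Counts over all 12862 genes tested moved too. For SiO2, 1033 genes were under 0.05 on the TMM scale, 289 of them lower. With library totals there were 1329 (830 lower), on the TPM scale 1474 (1029 lower) and with limma on log2(FPKM + 1) 1481 (1051 lower). For DNP-HSA the TMM scale gave 949 genes, and these settings gave 1195, 1074 and 1295. For the other settings, counts over all genes are not given here.

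With DESeq2, Map3k8 passed the adjusted threshold in all 3 comparisons against blank, in which 2.15%, 2.4% and 4.6% of all genes passed, and no other member did. With limma on log2(FPKM + 1) no member passed in any comparison, beside 0.233%, 0.358% and 0.70% of all genes in these 3. On log2(FPKM + 0.1) limma called Map3k8 for SiO2 (0.342% of all genes passed) and for DNP-HSA+SiO2 (0.801%), and no member for DNP-HSA (0.451%). In the comparisons between treatments and the interaction, DESeq2 and limma called 0 members. There DESeq2 called 0.0311% of all genes against DNP-HSA, 0.0466% against SiO2 and 0.28% for the interaction, and either limma fit called 0.0%, 0.0% and 0.0311%.

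**Figure D2:**
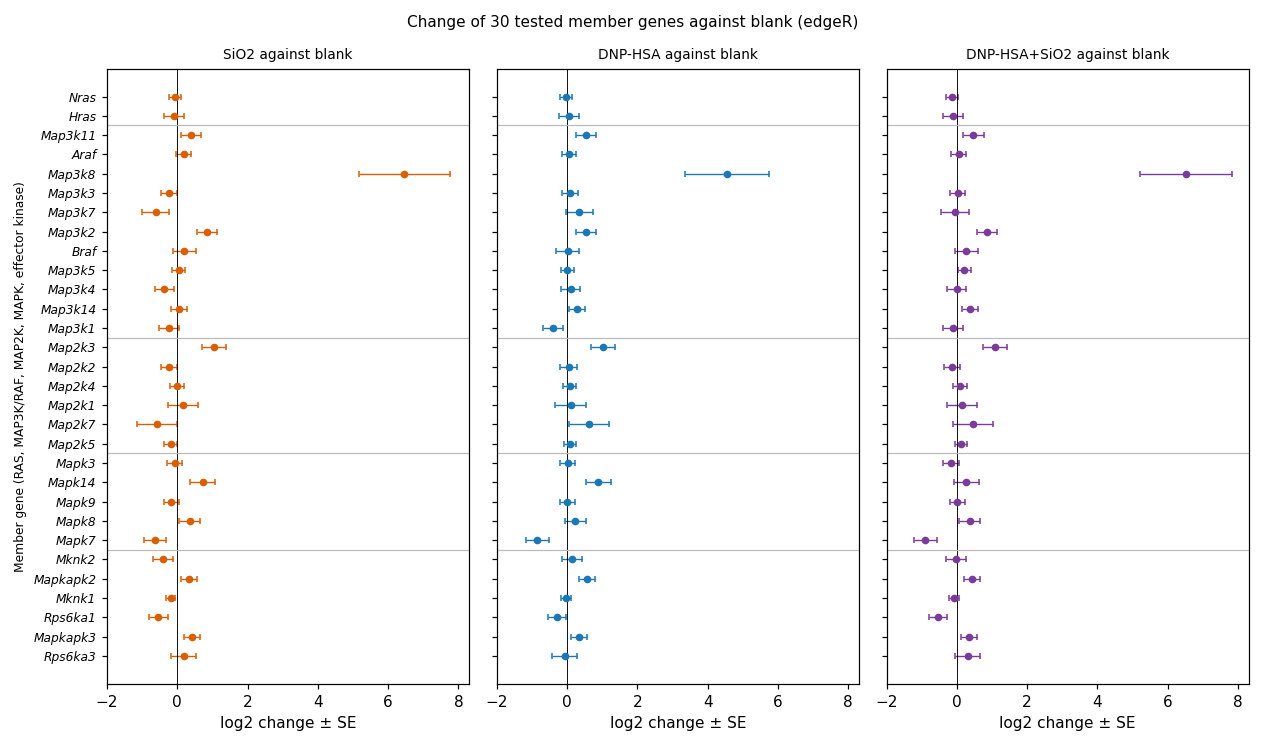
Log2 difference of the 30 tested members from blank for SiO2, DNP-HSA and DNP-HSA+SiO2 (panels), with bars of 1 standard error from the edgeR fit, by tier. Map3k8 stands at 4.54 to 6.51 in the 3 panels, whereas the other members lie between -0.89 and 1.09.

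In CPM, the 3 libraries of a treatment lay wholly apart from the 3 blank libraries in 8 of the 30 members for SiO2 (14.5% of all genes, 7.85% higher and 6.63% lower). In FPKM the separation can differ. Cases are given below for Nras, Mapk14, Mapkapk2, Mapkapk3, Map3k11, Map3k14, Rps6ka1 and Mknk1, and others are not listed. The libraries lay apart in CPM in 6 members for DNP-HSA (14.4%, with 6.94% higher and 7.41% lower) and in 5 for DNP-HSA+SiO2 (17.5%, with 8.58% higher and 8.88% lower). Map3k8 and Map2k3 were higher and Mapk7 was lower in all 3 comparisons. These 3 comparisons use the same blank libraries. Against DNP-HSA alone no member lay apart in DNP-HSA+SiO2 (1.9% of all genes), and against SiO2 alone Map3k14 did (2.94%). The median log2 difference of the members was -0.04 for SiO2, 0.08 for DNP-HSA and 0.11 for DNP-HSA+SiO2, beside -0.01, 0.01 and -0.01 over all genes tested. By sign, 14, 24 and 20 of the 30 members were higher than blank on the TMM scale, beside 48.4%, 50.8% and 48.8% of all genes, whereas on the TPM scale 8, 10 and 7 were, beside 18.3%, 18.7% and 16.7% of all genes.

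RAS proteins stand at the head of the ERK cascade, and in CPM neither gene differed beyond its spread. Nras was at 67.0, 70.5 and 81.0 CPM in the blank libraries (unnumbered, 1 and 2), 63.7, 68.8 and 75.8 in SiO2, 63.0, 78.1 and 73.9 in DNP-HSA, and 54.4, 80.2 and 65.0 in DNP-HSA+SiO2. Hras was at 14.5, 16.2 and 13.0 CPM in blank, 12.1, 18.4 and 10.6 in SiO2, 12.3, 12.5 and 20.4 in DNP-HSA, and 13.1, 11.2 and 16.3 in DNP-HSA+SiO2. In CPM the libraries of every group overlapped those of blank for both genes. In FPKM, those of Hras still overlapped, but Nras was at 19.4 to 21.2 in blank and lower, at 10.3 to 16.9, in every treated library. On log2(FPKM + 1) the median of all genes was also below blank, by -0.23, -0.22 and -0.30 for SiO2, DNP-HSA and DNP-HSA+SiO2. Against blank, DNP-HSA+SiO2 gave a log2 difference of -0.13 ± 0.17 (SE) for Nras and -0.11 ± 0.28 for Hras (edgeR, adjusted p = 0.915 and 0.974).

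Map3k8 encodes Tpl2 (Cot), the MAP3K that feeds ERK downstream of Toll-like and TNF receptors and is held inactive by NF-kappaB1 p105. It lies on chromosome 18 from 4331327 to 4353015 on the minus strand (GRCm38). It was at 1.57, 0.899 and 1.59 CPM in the blank libraries, which rest on 130, 64 and 108 estimated counts. It was at 270, 46.4 and 43.5 CPM in SiO2, at 24.5, 15.4 and 54.9 in DNP-HSA, and at 311, 48.8 and 11.8 in DNP-HSA+SiO2. All 9 treated libraries lay above all 3 blank libraries, but the treated libraries themselves spread widely, and the unnumbered SiO2 and DNP-HSA+SiO2 libraries stood far above the others. The log2 difference from blank was 6.46 ± 1.3 (SE) for SiO2, 4.54 ± 1.19 for DNP-HSA and 6.51 ± 1.3 for DNP-HSA+SiO2, with edgeR adjusted p of 0.119, 0.20 and 0.0551. Over the alternatives run, the adjusted p ran from 9.4e-07 to 0.533 for SiO2, from 0.00253 to 0.615 for DNP-HSA and from 4.13e-07 to 0.253 for DNP-HSA+SiO2, and in each the lowest was that of DESeq2. Without the unnumbered SiO2 library the SiO2 difference was 5.06, and without the unnumbered DNP-HSA+SiO2 library the DNP-HSA+SiO2 difference was 4.50, both with the same direction. Without all 4 unnumbered libraries the differences were 5.18, 4.83 and 4.62. Since the blank libraries were under the level of the filter, Map3k8 was tested only because its treated libraries were above it.

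For adding SiO2 to DNP-HSA, the Map3k8 log2 difference was 1.97 ± 1.06 (SE, edgeR adjusted p = 1.0), and it was -0.05 without the unnumbered DNP-HSA+SiO2 library. The interaction, which is the DNP-HSA+SiO2 level less what the treatments alone would add up to on the log2 scale, was -4.49 ± 1.52 (edgeR adjusted p = 1.0). In plain levels, the mean of DNP-HSA+SiO2 was 124 ± 163 CPM (SD, n = 3), beside 120 ± 130 for SiO2, 31.6 ± 20.7 for DNP-HSA and 1.35 ± 0.394 for blank. By isoform, the protein-coding ENSMUST00000025078 was at 0.135 to 0.486 FPKM in blank and at 2.36 to 65.2 FPKM in the treated libraries. A shorter isoform annotated as a processed transcript, ENSMUST00000105472, was listed at 0 in all 3 blank libraries. It was at 48.6, 9.96 and 1.78 FPKM in SiO2, 0.157, 0.0681 and 1.60 in DNP-HSA, and 20.1, 4.18 and 0.0216 in DNP-HSA+SiO2.

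Map3k2 encodes MEKK2, which activates the ERK5 and JNK pathways, and lies on chromosome 18 from 32163089 to 32236751. It was at 98.8, 104 and 129 CPM in blank, 228, 155 and 211 in SiO2, 116, 192 and 174 in DNP-HSA, and 246, 234 and 124 in DNP-HSA+SiO2. The SiO2 libraries were all above blank, while a library of each of the other treatments lay within the blank range. The log2 difference was 0.84 ± 0.29 (SE) for SiO2, 0.54 ± 0.29 for DNP-HSA and 0.86 ± 0.29 for DNP-HSA+SiO2 (edgeR adjusted p = 0.422, 0.818 and 0.238). Map3k11 was at 62.0, 97.2 and 91.2 CPM in blank, 114, 133 and 79.97 in SiO2, 100.2, 101 and 163 in DNP-HSA, and 148, 86.5 and 113 in DNP-HSA+SiO2. In CPM only the DNP-HSA libraries were all above blank, with a log2 difference of 0.54 ± 0.29 (edgeR adjusted p = 0.815). In FPKM the DNP-HSA libraries overlapped blank, at 25.6 to 38.3 against 23.1 to 44.7. Map3k11 overlaps Pcnx3 on the opposite strand, which averaged 22.7 FPKM. The labels describe a strand-marking library, but no source read here says whether the counting used strand. The remaining 8 members of the tier (Araf, Braf, Map3k1, Map3k3, Map3k4, Map3k5, Map3k7 and Map3k14) gave log2 differences of -0.62 to 0.38 from blank. The SiO2 libraries of Map3k4 lay below blank (16.8 to 22.2 against 23.6 to 29.7 CPM), and those of DNP-HSA+SiO2 lay above it for Map3k14 (11.7 to 13.5 against 8.84 to 10.99 CPM). In FPKM the DNP-HSA+SiO2 libraries of Map3k14 overlapped blank (2.45 to 3.42 against 2.57 to 3.26).

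**Figure D3:**
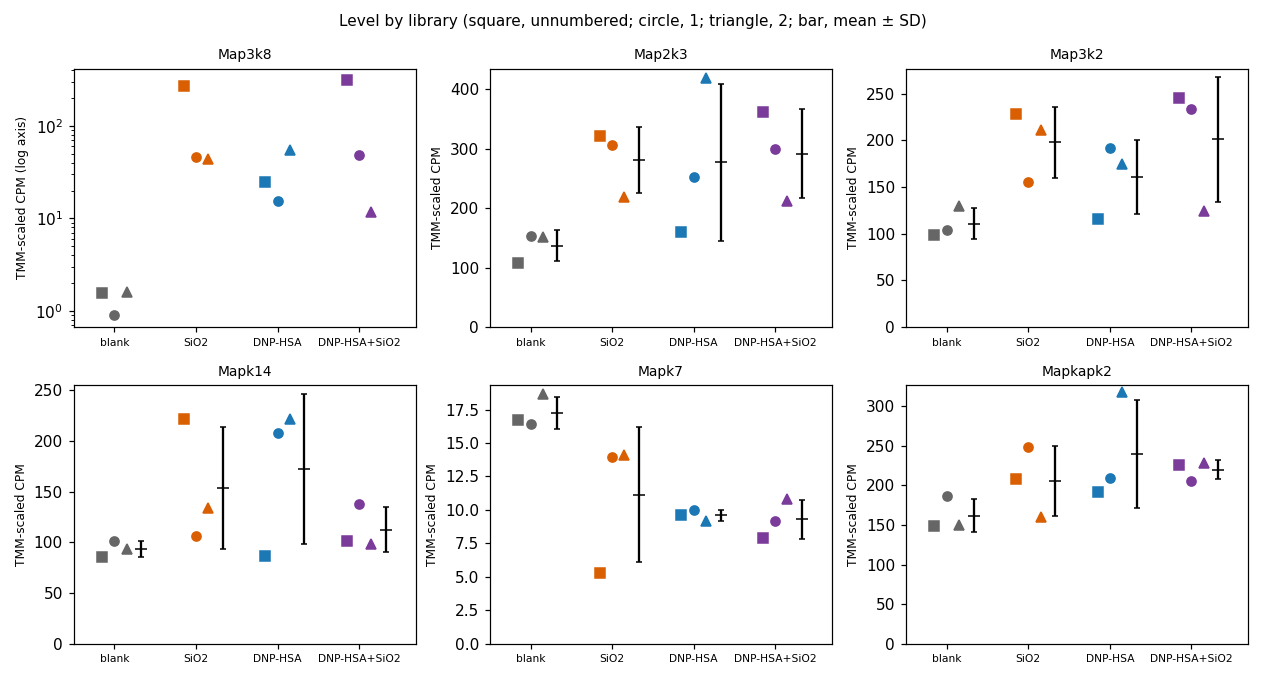
TMM-scaled CPM of 6 members in each library by group (square, unnumbered; circle, 1; triangle, 2), with the mean and SD of each group as a bar except for Map3k8, which is on a log axis. The 9 treated libraries of Map3k8 (11.8 to 311 CPM) lie above blank (0.899 to 1.59), those of Map2k3 (159.6 to 419.6) above blank (107 to 152), and those of Mapk7 (5.32 to 14.1) below blank (16.4 to 18.6).

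In the MAP2K tier, Map2k3 (MKK3, an activator of p38) had the largest difference. It lies on chromosome 11 from 60932033 to 60952811 on the plus strand (GRCm38). It was at 107, 152 and 152 CPM in blank, 321, 306 and 218 in SiO2, 159.6, 253 and 419.6 in DNP-HSA, and 362, 300.5 and 213 in DNP-HSA+SiO2. All 9 treated libraries were above the blank libraries, with the unnumbered DNP-HSA library nearest to them. The log2 difference was 1.04 ± 0.34 (SE) for SiO2, 1.02 ± 0.34 for DNP-HSA and 1.09 ± 0.34 for DNP-HSA+SiO2 (edgeR adjusted p = 0.396, 0.396 and 0.21), so that about a doubling in each treatment did not pass the threshold across all genes.

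Map2k3 has 6 listed isoforms, and an internal exon divides them. The protein-coding isoform ENSMUST00000019076 holds a coding exon of 52 bases at chr11:60945511-60945562, and ENSMUST00000130269, annotated as subject to nonsense-mediated decay, joins the neighbouring exons without it. The length is not a multiple of 3, so skipping it shifts the reading frame. The exon is shown in capitals, with the 21 bases on either side of it in the coding transcript, because the isoforms with and without it differed in their share between groups (GENCODE M21, GRCm38, plus strand).
Map2k3 skipped exon: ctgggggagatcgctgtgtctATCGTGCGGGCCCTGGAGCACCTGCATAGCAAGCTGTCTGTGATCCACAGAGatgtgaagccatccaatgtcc
Of the FPKM of isoforms with and without this exon, the skipped form made up 0, 35.3 and 29.7% in the blank libraries, 64.9, 43.1 and 42.6% in SiO2, 37.0, 37.5 and 49.9% in DNP-HSA, and 68.3, 43.6 and 36.3% in DNP-HSA+SiO2. The skipped share was higher in each of the 9 treated libraries than in any blank library, although the blank range ended close to the lowest treated values. The mean share was 21.7 ± 19.0% (SD, n = 3) in blank, 50.2 ± 12.7% in SiO2, 41.5 ± 7.32% in DNP-HSA and 49.4 ± 16.8% in DNP-HSA+SiO2. An exact two-sided permutation test gave p = 0.10 for each treatment against blank (n = 3 per group), which is the smallest that 3 against 3 allows. The skipped isoform was listed at 0 FPKM in the unnumbered blank library, where the table could hold a failed estimate, and its edgeR log2 differences at isoform level were 2.09 ± 1.55, 1.91 ± 1.54 and 2.14 ± 1.55 (adjusted p = 1.0, 1.0 and 0.867). The coding isoform itself was at 43.7, 43.6 and 40.9 FPKM in blank and at 27.4 to 66.4 FPKM in the treated libraries, so that its range enclosed that of blank. This exon was chosen after the isoform values were seen.

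Map2k7 (MKK7, an activator of JNK) was the next most variable member after Map3k8, and an overlapping gene was high where it was low. How reads were assigned between them was not examined. It was at 39.4, 43.0 and 14.9 CPM in blank, 39.2, 11.8 and 13.8 in SiO2, 42.2, 56.3 and 50.6 in DNP-HSA, and 16.7, 56.9 and 60.0 in DNP-HSA+SiO2. Gm49320, a gene model on the same strand whose span overlaps that of Map2k7 on chromosome 8, was at 53.0 CPM in blank 2, at 39.6 and 49.3 in SiO2 1 and SiO2 2 and at 24.1 in the unnumbered DNP-HSA+SiO2 library. It was at 0 to 0.458 CPM in the other 8 libraries. The 4 libraries in which Gm49320 was listed high were thus the 4 in which Map2k7 was low. The sum of both genes was 39.2 to 67.9 CPM, and its highest value was 1.73 times its lowest, against 5.08 times for Map2k7 alone. The log2 differences of Map2k7 from blank were -0.59 ± 0.57 (SE) for SiO2, 0.62 ± 0.57 for DNP-HSA and 0.46 ± 0.57 for DNP-HSA+SiO2 (edgeR adjusted p = 0.891, 1.0 and 0.902). With the counts of both genes added, a step chosen after seeing the data, they were 0.03 ± 0.26, -0.01 ± 0.26 and 0.07 ± 0.26 (edgeR adjusted p = 0.996, 1.0 and 0.985).

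Map2k1 showed a pattern over libraries rather than over groups. It was at 28.4, 72.2 and 40.1 CPM in blank, 37.7, 76.4 and 44.02 in SiO2, 32.3, 43.7 and 74.8 in DNP-HSA, and 38.2, 45.1 and 73.1 in DNP-HSA+SiO2. The unnumbered library was lowest in every group, and number 1 was highest in blank and SiO2 while number 2 was highest in the DNP-HSA groups. Lyz2 encodes a lysozyme that myeloid phagocytes make in quantity. Its level was 60.1 to 87.8 FPKM in the 4 libraries where Map2k1 was at 72.2 to 76.4 CPM, at 17.9 to 34.04 in the other numbered libraries and at 3.04 to 3.71 in the unnumbered ones. Cma1, the chymase gene of mast cells, was at 9806 to 11654, 7249 to 7645 and 3698 to 4281 FPKM in the same libraries. The marker lists did not all run this way. S100a8 went with Lyz2, at 5.89 to 7.19 FPKM in the same 4 libraries and 0 to 0.294 elsewhere. Adgre1, of the macrophage and neutrophil list, was higher in the unnumbered libraries (3.94 to 5.56 FPKM) than in the numbered ones (0.542 to 2.61). So was the mast cell marker Tpsab1 (405 to 448 against 9.42 to 42.9 FPKM), and Cd68 overlapped between them. Whether the makeup of the cultures set the Map2k1 level was not tested. Fewer cells of a type and less RNA per cell cannot be told apart in these bulk libraries.

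**Figure D4:**
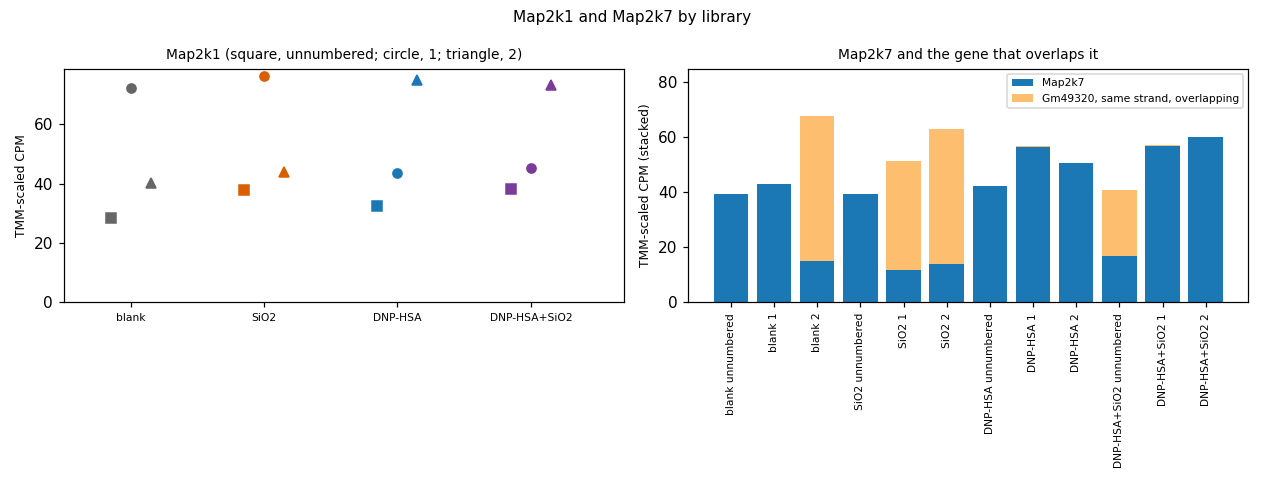
Left, TMM-scaled CPM of Map2k1 in each library by group; the unnumbered libraries (28.4 to 38.2 CPM) are lowest in every group and the highest library of each group is at 72.2 to 76.4. Right, stacked bars of TMM-scaled CPM of Map2k7 and of Gm49320, which overlaps it on the same strand, in each library; the sum runs from 39.2 to 67.9 CPM while Map2k7 alone runs from 11.8 to 60.0.

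Of the other MAP2K genes, Map2k5 (MEK5, the activator of ERK5) was at 29.0, 29.4 and 23.6 CPM in blank, 21.2, 26.9 and 23.6 in SiO2, 30.4, 26.6 and 30.1 in DNP-HSA, and 25.7, 28.9 and 34.9 in DNP-HSA+SiO2. The groups overlapped, and the SiO2 difference was -0.19 ± 0.18 (log2, SE, edgeR adjusted p = 0.879). Map2k2 and Map2k4 (MKK4) gave log2 differences between -0.23 and 0.10 from blank.

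Among the tested MAPKs, Mapk7 (ERK5, the kinase of its own branch with MEK5 above it) was the one whose treated libraries were all lower than blank. It lies on chromosome 11 from 61488812 to 61494406 on the minus strand. It was at 16.7, 16.4 and 18.6 CPM in blank, 5.32, 14.0 and 14.1 in SiO2, 9.59, 10.0 and 9.21 in DNP-HSA, and 7.87, 9.17 and 10.8 in DNP-HSA+SiO2. All 9 treated libraries lay below the blank libraries, and the unnumbered SiO2 library was the lowest. The log2 difference was -0.63 ± 0.32 (SE) for SiO2, -0.84 ± 0.32 for DNP-HSA and -0.89 ± 0.32 for DNP-HSA+SiO2 (edgeR adjusted p = 0.681, 0.506 and 0.28). Map3k2 and Map2k5, whose products act above ERK5, were described above with differences of the opposite sign or near 0.

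Mapk14 was at 85.3, 101 and 93.8 CPM in blank, 222, 106 and 134 in SiO2, 86.9, 208 and 222 in DNP-HSA, and 102, 138 and 98.0 in DNP-HSA+SiO2. The blank libraries lay close together, the SiO2 and DNP-HSA groups each held at least 1 library at more than 2 times the blank mean, and the DNP-HSA+SiO2 group held none. The log2 difference was 0.72 ± 0.35 (SE) for SiO2, 0.88 ± 0.36 for DNP-HSA and 0.27 ± 0.35 for DNP-HSA+SiO2 (edgeR adjusted p = 0.669, 0.557 and 0.912), and the last was -0.10 on the TPM scale. The interaction was -1.33 ± 0.50 (SE), with an edgeR adjusted p of 1.0. In FPKM, Mapk14 was at 63.4, 30.3 and 59.5 in SiO2 against 40.2 to 52.5 in blank, so that SiO2 1 lay below blank. A gene model on the same strand, Gm4356, overlaps Mapk14 and averaged 2.74 FPKM.

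Mapk14 carries a pair of alternative coding exons of 80 bases each. Exon A (chr17:28737011-28737090) is in 6 listed isoforms and exon B (chr17:28740680-28740759) in ENSMUST00000004990 only, and the remaining isoforms of the 9 listed hold neither. They are shown because the balance between them differed between libraries, with capitals at the 41 positions where the bases differ. The remaining 39 of 80 positions (48.8%) are the same (GENCODE M21, GRCm38, plus strand).
Mapk14 exon A: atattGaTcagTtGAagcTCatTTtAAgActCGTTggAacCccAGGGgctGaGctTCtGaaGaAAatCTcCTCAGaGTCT
Mapk14 exon B: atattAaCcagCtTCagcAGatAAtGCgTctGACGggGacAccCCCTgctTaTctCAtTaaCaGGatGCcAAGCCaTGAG
Isoforms with exon B made up 16.1, 36.0 and 10.5% of the FPKM with A or B in the blank libraries, 3.23, 5.34 and 5.02% in SiO2, 19.6, 4.20 and 4.44% in DNP-HSA, and 12.2, 24.5 and 24.6% in DNP-HSA+SiO2. The SiO2 libraries were all below blank, numbers 1 and 2 of DNP-HSA were below it, and the unnumbered DNP-HSA library and all of DNP-HSA+SiO2 lay within its range. The means were 20.8 ± 13.4% (SD, n = 3) in blank, 4.53 ± 1.14% in SiO2, 9.40 ± 8.81% in DNP-HSA and 20.4 ± 7.16% in DNP-HSA+SiO2. By an exact two-sided permutation test p was 0.10 for SiO2, 0.30 for DNP-HSA and 1.0 for DNP-HSA+SiO2 against blank (n = 3 per group, smallest possible p 0.10). At isoform level, ENSMUST00000004990 gave a log2 difference of -1.89 ± 0.51 (SE) for SiO2 against blank and an interaction of 2.89 ± 0.72 (edgeR adjusted p = 0.44 and 1.0). The exon A isoforms were themselves divided differently in 1 library: ENSMUST00000062694 was at 22.2 FPKM in SiO2 1 and at 0.0156 to 1.77 FPKM in the other 11. These exons were chosen after the isoform values were seen.

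**Figure D5:**
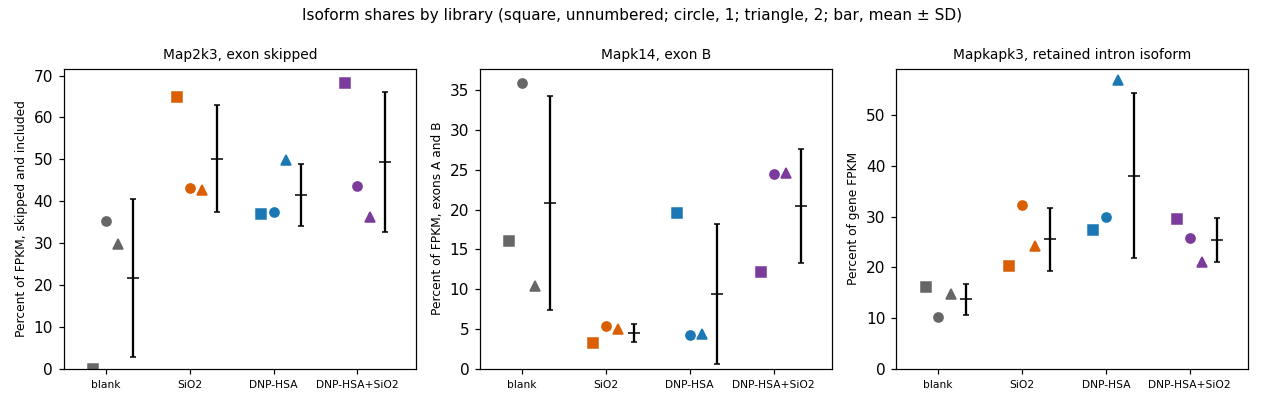
Percent of FPKM in each library by group (square, unnumbered; circle, 1; triangle, 2; bar, mean and SD) for Map2k3 isoforms that skip the 52-base exon, Mapk14 isoforms with exon B, and the retained-intron isoform of Mapkapk3. The skipped share of Map2k3 is 0 to 35.3% in blank and 36.3 to 68.3% in the treated libraries, and the exon B share of Mapk14 is 3.23 to 5.34% in SiO2 and 10.5 to 36.0% in blank.

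Mapk8 (JNK1) was at 17.4, 20.1 and 32.7 CPM in blank, 27.4, 24.3 and 38.2 in SiO2, 24.3, 34.2 and 23.9 in DNP-HSA, and 26.5, 40.3 and 23.5 in DNP-HSA+SiO2. The blank 2 library lay within every treated group, and the DNP-HSA+SiO2 difference was 0.36 ± 0.30 (log2, SE, edgeR adjusted p = 0.775). Mapk9 (JNK2) and Mapk3 (ERK1) gave log2 differences between -0.17 and 0.02 from blank.

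The effector kinases are phosphorylated by the MAPKs: MK2 and MK3 by p38, the RSKs by ERK, and the MNKs by ERK and p38. Mapkapk2 (MK2, which stabilizes cytokine mRNAs) was at 149, 186 and 150.4 CPM in blank, 208, 249 and 160.3 in SiO2, 191, 209 and 317 in DNP-HSA, and 225, 206 and 228 in DNP-HSA+SiO2. In CPM the libraries of DNP-HSA and DNP-HSA+SiO2 were all above blank, and those of SiO2 overlapped it. In FPKM every treated group overlapped blank, with 51.7 to 66.7 in blank, 62.4 to 87.7 in DNP-HSA and 56.3 to 72.2 in DNP-HSA+SiO2. The log2 difference was 0.34 ± 0.23 (SE) for SiO2, 0.56 ± 0.23 for DNP-HSA and 0.44 ± 0.23 for DNP-HSA+SiO2 (edgeR adjusted p = 0.782, 0.575 and 0.505). Mapkapk3 (MK3) was at 91.3, 117 and 146 CPM in blank, 148, 164 and 166 in SiO2, 106, 159.7 and 186 in DNP-HSA, and 153, 159.7 and 138 in DNP-HSA+SiO2. In CPM the SiO2 libraries of Mapkapk3 lay just above blank, with a difference of 0.43 ± 0.23 (log2, SE, edgeR adjusted p = 0.695). In FPKM they overlapped it (49.2 to 59.0 against 36.8 to 58.3). An isoform of Mapkapk3 annotated as retaining an intron, ENSMUST00000143487, made up 16.2, 10.2 and 14.7% of the FPKM of the gene in blank, 20.2, 32.4 and 24.1% in SiO2, 27.5, 29.9 and 56.9% in DNP-HSA, and 29.5, 25.7 and 21.003% in DNP-HSA+SiO2. Every treated library was above every blank library, but the isoform was chosen after the isoform values were seen. How many of all isoforms have shares that lie apart in this way was not counted. The log2 differences of this isoform were 1.33 ± 0.41 (SE), 1.83 ± 0.42 and 1.20 ± 0.41 (edgeR adjusted p = 0.58, 0.277 and 0.426).

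Rps6ka1 (RSK1) was at 164, 191 and 152 CPM in blank, 88.2, 154 and 107 in SiO2, 149, 129 and 138 in DNP-HSA, and 88.2, 98.3 and 164 in DNP-HSA+SiO2. In CPM the DNP-HSA libraries were all below blank, by a log2 difference of -0.28 ± 0.26 (SE), and the larger differences of SiO2 (-0.54 ± 0.26) and DNP-HSA+SiO2 (-0.53 ± 0.26) came with overlapping libraries (edgeR adjusted p = 1.0, 0.667 and 0.478). In FPKM every treated library of Rps6ka1 was below blank (23.9 to 58.1 against 62.0 to 75.7). On log2(FPKM + 1) the median of all genes was also below blank. Rps6ka3, Mknk1 and Mknk2 gave log2 differences of -0.42 to 0.31 from blank. The SiO2 libraries of Mknk1 lay below blank (112 to 122 against 128 to 142 CPM). In FPKM every treated library of Mknk1 did, at 43.3 to 67.5 against 69.8 to 79.5 in blank.

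At isoform level, 117 of the 215 member isoforms were tested among 30820, and none passed an adjusted p of 0.05 by edgeR in any comparison. The percentage of all isoforms that passed was 0.0357% for SiO2, 0.0422% for DNP-HSA and 0.0389% for DNP-HSA+SiO2 against blank. It was 0.00649% for DNP-HSA+SiO2 against DNP-HSA, 0.0% against SiO2 and 0.00324% for the interaction. At an unadjusted p under 0.05 there were 16, 12 and 16 member isoforms, beside 5.78%, 5.94% and 8.55% of all isoforms. By percentage these were 13.7%, 10.3% and 13.7% of the member isoforms tested. A further Map2k3 isoform that retains an intron, ENSMUST00000137609, also chosen after its values were seen, was at 0.359 to 2.29 FPKM in blank. It was at 2.04 to 13.3 FPKM in the treated libraries. Its log2 difference was 2.16 ± 0.73 (SE) for SiO2, 2.78 ± 0.75 for DNP-HSA and 3.39 ± 0.77 for DNP-HSA+SiO2 (edgeR adjusted p = 0.649, 0.397 and 0.167).

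Other genes of the pathway were taken by list, and those named were picked from the genes with the lowest p for SiO2 against blank. Of 9 tested MAP kinase phosphatases, which remove the phosphates that a MAP2K adds, 1 rose with SiO2, 1 with DNP-HSA and 3 with DNP-HSA+SiO2 against blank (edgeR, adjusted p under 0.05), none fell, and the median log2 difference was 3.54, 3.04 and 3.50. Dusp4, a nuclear phosphatase of ERK and JNK, averaged 38.1 ± 6.61 CPM (SD, n = 3) in blank and 701 ± 334 in SiO2, a rise of 4.20 ± 0.60 (log2, SE, edgeR adjusted p = 0.0362). Of 21 nuclear targets of the cascades, 2, 3 and 4 rose and none fell, with medians of 1.64, 1.55 and 1.91. Egr3, an immediate early transcription factor, averaged 59.5 ± 24.2 CPM in blank and 3269.9 ± 2153 in SiO2, a rise of 5.78 ± 0.57 (log2, SE, edgeR adjusted p = 0.00359). Of 9 feedback inhibitors of the ERK pathway none passed (medians 0.85, 0.37 and 0.70). Spry1, a Sprouty gene that restrains receptor signalling to ERK, was at 0.808 ± 0.313 CPM in blank and 70.8 ± 52.9 in SiO2 (edgeR adjusted p = 0.106).

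None passed in the lists that stand beside the kinases themselves. The medians for SiO2, DNP-HSA and DNP-HSA+SiO2 against blank were 0.10, -0.01 and 0.04 over 18 scaffolds and regulators, and 0.01, 0.04 and 0.02 over 10 exchange factors and adaptors upstream of RAS. Over 19 further kinases of the cascades they were -0.11, 0.03 and 0.01. Among these last, Mapk6, which encodes the atypical kinase ERK3, averaged 83.4 ± 26.2 CPM (SD, n = 3) in blank, 168 ± 85.3 in SiO2, 168 ± 32.4 in DNP-HSA and 212 ± 81.5 in DNP-HSA+SiO2 (edgeR adjusted p = 0.516, 0.529 and 0.183). Gadd45b, a stress-induced activator of the MAP3K MEKK4, averaged 9.17 ± 1.72 CPM in blank and 105 ± 50.3 in SiO2 (edgeR adjusted p = 0.124).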

How the data were processed

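Poly(A) RNA of 12 BMMC libraries was sequenced in paired reads of 150 bases. Of tools, the submitters' processing notes list StringTie 1.3.4d, HISAT2 2.0.4 and cutadapt 1.9 beside edgeR and DESeq2 but not what each did, and no build is given there. The coordinates of all 215 member isoforms equal those of GENCODE M21 (GRCm38), which supplied the exon sequences. The authors deposited FPKM per isoform, scaled by length and library. The deposited estimated counts per isoform are not normalized between libraries, and each lies within 1 of FPKM multiplied by isoform length and a factor common to its library. Multiples of 4 made up 33.7% to 37.6% of the low counts at single-isoform genes in a library, so that precision may be overstated, and the fit was repeated after division by 4. Intervals and SDs cover the libraries sequenced and PCR copies were not removed by molecular identifiers.

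All 24 value columns were mapped to libraries by their labels. Isoform values were summed per gene identifier, rounded, and genes with FPKM of at least 1 in at least 3 libraries were tested with edgeR 4.0.16 (TMM, trended dispersion, robust quasi-likelihood F-test, all 12 libraries in the fit, no replicate term), with Benjamini-Hochberg adjustment. Standard errors are the size of the log2 difference over the square root of F. The code was tested on simulated data. Alternatives were DESeq2 1.42.0, limma 3.58.1 on log2(FPKM + 1) and log2(FPKM + 0.1), other scalings and filters, a replicate block and leaving out libraries. R 4.3.3 was used. Exact permutation tests are two-sided and were run for 6 exon share comparisons with no adjustment.

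Pairing by equal numbers was checked with correlations over genes of deviations from the group mean, since no label gives a pairing. They were 0.576, 0.599 and 0.581 for blank and SiO2 (unnumbered, 1 and 2) and 0.462, 0.573 and 0.297 for DNP-HSA and DNP-HSA+SiO2, so the numbers pair these groups. Between blank and DNP-HSA the value was 0.675 for the unnumbered libraries but -0.112 and -0.0973 for numbers 1 and 2, which correlated crosswise (0.538 for blank 1 with DNP-HSA 2 and 0.538 for blank 2 with DNP-HSA 1), so equal numbers do not pair across these groups.

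The members and lists were chosen with earlier results of these data known. Every library's values are given for the 3 members of each tier with the smallest unadjusted p against blank, and for Map2k1, named after its values were seen. Up to 4 genes of each other list could be named by their p for SiO2 against blank. Overlapping genes were counted apart, as deposited: 14 members overlap another listed gene, 5 of them a gene above 1 FPKM on average. Sequences of members on chromosome 18 are not reported here.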

Additional observations from a re-analysis of the deposited data

How the results depend on the processing

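The counts of member kinases called were 0 in all 6 comparisons as reported. Map3k8 was the call in each setting that gave 1: DESeq2 for SiO2, for DNP-HSA and for DNP-HSA+SiO2 against blank, limma on log2(FPKM + 0.1) for SiO2 and for DNP-HSA+SiO2, and, for DNP-HSA+SiO2, library totals only, the TPM scale and the fits without the unnumbered SiO2 library or without DNP-HSA+SiO2 2. Leaving out libraries gave 0 to 1. The Map3k8 log2 difference was then 6.48 and 5.44 for SiO2 (DESeq2, limma), 4.56 for DNP-HSA (DESeq2) and 6.53, 4.73, 6.03, 5.94, 6.50 and 7.05 for DNP-HSA+SiO2. With the filter of 1 FPKM in all libraries Map3k8 is not tested. No member isoform was called in any alternative run.

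Fitted with the replicate block inside each pair of groups, Map3k8 was at 5.96 for SiO2 against blank (edgeR adjusted p = 0.255) and 1.24 for DNP-HSA+SiO2 against DNP-HSA, with 0 members called. With the block over all libraries it was at 5.96, 4.66 and 5.87 against blank, with 0 members called. That block joins numbers 1 and 2 of blank and SiO2 with libraries of the DNP-HSA groups that did not deviate with them, so it does not show how pairing bears on the comparisons of those groups with blank, and no fit with a suitable pairing was made there. The block within pairs changed no call of a member.

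Signs turned in these cases, none past the threshold with either sign. Map3k8 for DNP-HSA+SiO2 against DNP-HSA was -0.20 without the 4 unnumbered libraries and -0.046 without that of DNP-HSA+SiO2, and leaving out single libraries moved it from -0.046 to 2.62. Mapk14 for DNP-HSA+SiO2 was -0.070, -0.10, -0.060 and -0.0611 with library totals, the TPM scale and limma on log2(FPKM + 1) and log2(FPKM + 0.1). Map3k11 for DNP-HSA was -0.036 in both limma fits, and Mapk8 for DNP-HSA+SiO2 was -0.00060 on the TPM scale. Nras and Hras for DNP-HSA+SiO2 were 0.018 without the unnumbered and 0.0061 without number 1 of that group, with ranges of -0.29 to 0.018 and -0.27 to 0.0061 over the fits without 1 library. Map2k7 was 0.031 for SiO2 and -0.0087 for DNP-HSA when counted with Gm49320. Apart from the changed way of counting Map2k7, the cause was not tested.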
